A study of Mus musculus with 4 samples.

Results

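Genes that are known together from fetal lymphocyte development were followed in a mouse large pre-B cell line: Lin28b, Hmga2, Hmga1, Igf2bp1, Igf2bp2, Igf2bp3 and Arid3a. These 7 genes were chosen by symbol, and all were found among the 23420 gene rows of the count tables. The line carries the genotype Irf4/8-/-, so cells of both groups lack these interferon regulatory factors. Cells received a retrovirus that made green fluorescent protein together with a hairpin RNA directed at Myb (labelled shMyb) or at luciferase (shLuc), with 2 RNA-seq libraries each. Both groups grew with 10 ng/ml of interleukin 7, on the bone marrow stromal line OP9 before transduction, and fluorescent cells were sorted 72 hours after it. Each group's replicates were parallel transductions of the same line, and the tests therefore cover the variation among transductions, not among lines or mice.

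LIN28B is an RNA-binding protein that blocks the maturation of let-7 microRNAs. The let-7 family in turn represses transcripts with matching sites in their 3′ untranslated regions (3′ UTRs), and in fetal blood progenitors high LIN28B keeps such targets high. HMGA2 and HMGA1 are architectural chromatin proteins with AT-hooks that bind the minor groove of AT-rich DNA, the IGF2BP proteins bind messenger RNAs and affect their stability and translation, and ARID3A is a B-lineage transcription factor that LIN28B and let-7 control in fetal B cell development in mice.

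The let-7 microRNAs and their sites in the 7 genes are shown first because they are the sequence feature through which this group is known as a pathway. The RefSeq table (GRCm38.p6) held 9 mature let-7 family names from 11 loci, all with 1 shared seed (bases 2 to 8). A few of them are given 5′ to 3′ with the seed in capitals.
let-7a-5p: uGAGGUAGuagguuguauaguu
let-7d-5p: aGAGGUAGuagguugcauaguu
let-7i-5p: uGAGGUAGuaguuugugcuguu
miR-98-5p: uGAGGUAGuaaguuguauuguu

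Each of the 7 genes had at least 1 match to the complement of that seed (CTACCTC, sense strand) in its longest annotated 3′ UTR (GENCODE M21, GRCm38), 17 matches in all. For every gene 1 site is printed 5′ to 3′ on the transcript's strand, with the seed match in capitals and 14 bases before it. It is the site of 8 bases (the seed match followed by A) nearest to the stop codon, or in Hmga1, which had none, the 7-base match.
Lin28b, chr10:45381022-45381043, minus strand: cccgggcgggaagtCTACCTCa
Hmga2, chr10:120364224-120364245, minus strand: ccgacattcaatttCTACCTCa
Hmga1, chr17:27563278-27563299, plus strand: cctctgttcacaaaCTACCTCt
Igf2bp1, chr11:95961778-95961799, minus strand: ctgtgcgaagtaaaCTACCTCa
Igf2bp2, chr16:22059473-22059494, minus strand: cacacaaataaaagCTACCTCa
Igf2bp3, chr6:49086787-49086808, minus strand: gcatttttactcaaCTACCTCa
Arid3a, chr10:79953896-79953917, plus strand: aggcaagtttctttCTACCTCa

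Lin28b, Hmga2 and Igf2bp1 held 4 matches each, Arid3a 2, and Hmga1, Igf2bp2 and Igf2bp3 1 each. Among 11960 tested genes with an annotated 3′ UTR, 12.1% had at least 1 match and 8 genes had at least 4, 2 of them Hmga2 and Igf2bp1. Among the 6325 tested genes whose 3′ UTRs were as long as those of the 7 genes (1183 to 6337 bases), 17.0% had a match. These genes are known as let-7 targets, so their matches are no independent observation. A match describes the sequence only.

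**Figure D1:**
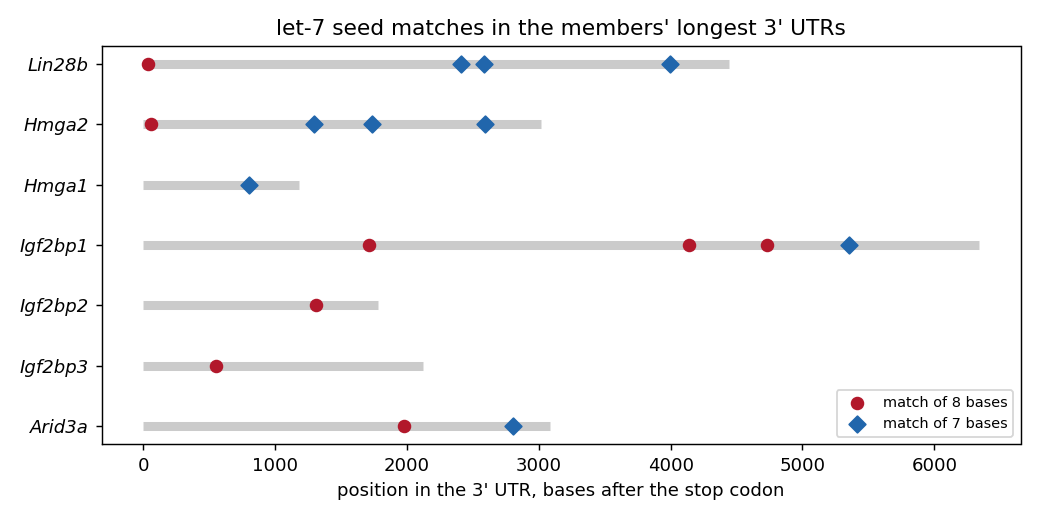
Each grey bar is the longest annotated 3′ UTR of 1 gene, drawn to scale in bases after the stop codon. Circles are matches of 8 bases and diamonds matches of 7 bases to the let-7 seed complement. Hmga1 alone of the 7 genes had no match of 8 bases, and Lin28b, Hmga2 and Igf2bp1 each had 4 matches.

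The target of the hairpin was read first. Myb had 617 and 639 CPM (library-scaled counts, normalised by TMM) in the libraries labelled shMyb, against 616 and 600 CPM in shLuc. Its log2 fold change was 0.05 (SE 0.04, edgeR adjusted p = 0.283), so the Myb transcript was not lower, and the directions given here compare libraries as labelled, not cells with measured loss of Myb. Myb shares 559 exon bases with Gm26577 on the opposite strand, and the strand setting of the counting is not given. Myb passed the test as higher under 2 other settings, library totals (0.11, adjusted p = 0.0109) and removal of the trend with expression level (0.17, adjusted p = 2.3e-04). Library totals were 38318335 and 36573743 counts in shMyb-labelled libraries and 40701550 and 44682954 in shLuc. Of 12610 tested genes 62.2% were called at an edgeR adjusted p below 0.05, 30.6% higher and 31.7% lower. In this comparison 49.1% of called genes were higher, against 60.1% with library totals alone. Pre-B cell markers were present in all 4 libraries (11 of 11, at a summed 7623 to 8143 CPM). Of these markers 5 were called higher and 5 lower in the libraries labelled shMyb (median log2 fold change 0.03), or 90.9% called.

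Lin28b itself, the gene at the head of the pathway, was barely detected in any library. Lin28b (ENSMUSG00000063804.8, chromosome 10, 45376620 to 45486395, minus strand) had 0 and 0 counts in the libraries labelled shMyb and 1 and 2 counts in shLuc. A count of 0 allows up to 3 counts, here 0.0770 and 0.0799 CPM, a limit for counting error only. All 4 values are at or below that limit, so Lin28b was not tested and no fold is given. Its paralog Lin28a, which also blocks let-7, had 1 and 3 counts in the libraries labelled shMyb and 0 and 0 in shLuc, and Trim71, another reported let-7 target of early development, had 1 and 0 against 0 and 0. The name of a fetal Lin28b programme therefore does not match these cells by its leading gene. Dntt, which encodes terminal transferase and is known to be low in fetal B cell progenitors, was abundant, at 684 and 681 CPM in the libraries labelled shMyb and 1249 and 1289 CPM in shLuc.

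The other 6 genes were tested and all 6 were called, 4 lower and 2 higher, against 62.2% of all tested genes and 56% of the 7177 with a mean under 40 CPM. With DESeq2 3 of the 6 were called, against 45.6% of the 12916 genes it tested. They did not move in 1 direction: Hmga2, Hmga1, Igf2bp1 and Igf2bp2 fell and Igf2bp3 and Arid3a rose. Their median log2 fold change was -0.41, against 0.0048 over all tested genes. Igf2bp1 passed the low-count filter through shLuc alone, so that its call was favoured by the filter. The other 5 passed it in both groups. The groups did not overlap in any of these 6, as in 82.1% of tested genes. Fewer cells that express a gene and less RNA of it per cell cannot be told apart in these bulk libraries.

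**Figure D2:**
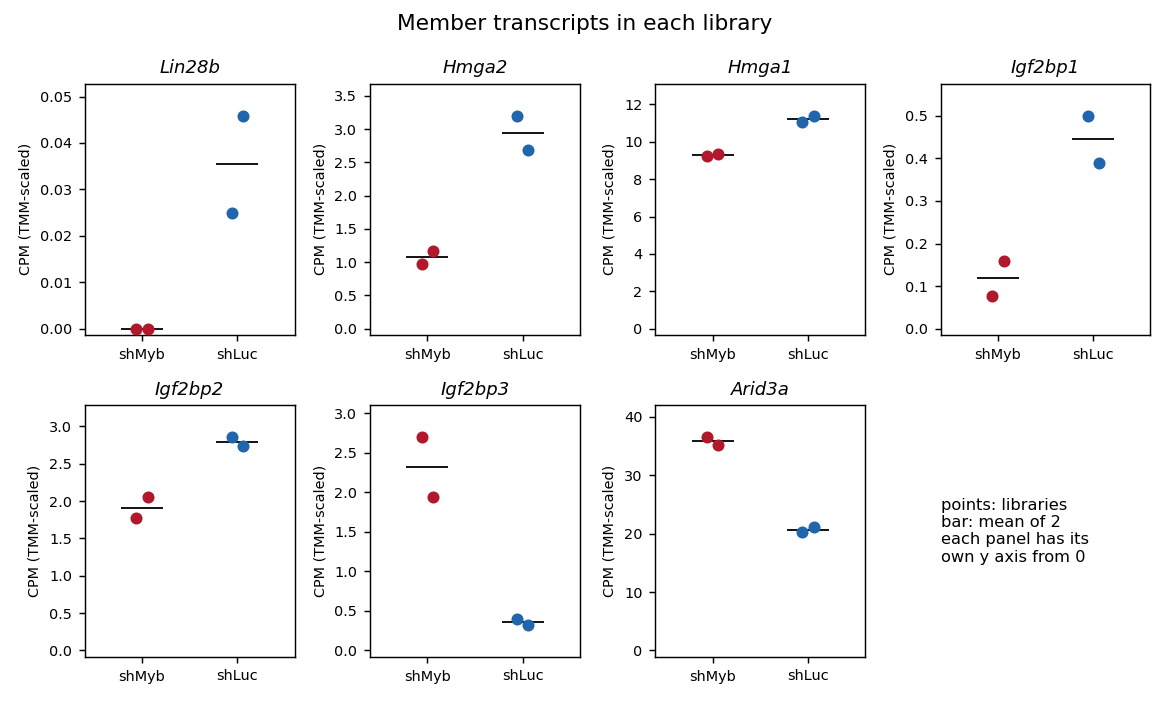
TMM-scaled CPM of the 7 genes in each library. Points are libraries (labelled shMyb in red, shLuc in blue), bars the mean of 2, and each panel has its own linear axis from 0. Igf2bp3 and Arid3a are higher in the libraries labelled shMyb, Hmga2, Hmga1, Igf2bp1 and Igf2bp2 lower, and Lin28b rests on at most 2 counts.

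Both genes for chromatin proteins were lower in the libraries labelled shMyb. Hmga2 (ENSMUSG00000056758.14, chromosome 10, 120361275 to 120476469, minus strand) had 0.975 and 1.17 CPM in the libraries labelled shMyb, against 3.20 and 2.68 CPM in shLuc. These rest on 38 and 44 counts against 128 and 117. The log2 fold change was -1.45 (SE 0.21, edgeR adjusted p = 2.4e-06), a level 2.74-fold lower, and 140 tested genes (1.11%) fell further. Its 3 nearest genes by pattern, by root mean square distance of the 4 centred log2 values among 10936 genes averaging 1 CPM or more, were Gtdc2 (0.024 log2 units), Epb4.1l1 (0.034) and Kcnk4 (0.047). The likeness rests on 4 libraries in 2 groups. The log2 fold changes of these genes were -1.44, -1.44 and -1.54, near that of Hmga2 because of how the genes were picked. An exon stretch of 140 bases overlaps 1700006J14Rik on the opposite strand, which was not analysed here.

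Hmga1 (ENSMUSG00000046711.16, chromosome 17, 27556497 to 27563674, plus strand), the close relative that stays expressed in many dividing adult cells, had 9.26 and 9.37 CPM in the libraries labelled shMyb and 11.1 and 11.4 CPM in shLuc. The log2 fold change was -0.27 (SE 0.08, edgeR adjusted p = 0.0063), a call that ended with DESeq2 (adjusted p = 0.0901). Reads that Hmga1 shares with near-identical sequence elsewhere in the genome may have been split or lost in the counting, so its level is uncertain. It also shares 102 exon bases with AI413582 on the opposite strand, which was not called (0.19, adjusted p = 0.191).

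The 3 Igf2bp genes, which encode related RNA-binding proteins, went opposite ways. Igf2bp3 (ENSMUSG00000029814.10, chromosome 6, 49085223 to 49214957, minus strand) had 2.69 and 1.94 CPM in the libraries labelled shMyb, against 0.400 and 0.321 CPM in shLuc, on 105 and 73 counts against 16 and 14. Its log2 fold change was 2.68 (SE 0.30, edgeR adjusted p = 3.0e-08), 6.42-fold higher, and only 41 of the 12610 tested genes (0.325%) rose further. Igf2bp3 shares 1529 exon bases with Malsu1, a mitochondrial ribosome assembly gene on the opposite strand, and the strand setting of the counting is not given in the sources used here. Malsu1 had 11.0 and 10.1 CPM in the libraries labelled shMyb and 13.6 and 13.9 CPM in shLuc (log2 fold change -0.38, adjusted p = 1.7e-04), the opposite direction to Igf2bp3.

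Igf2bp1 (ENSMUSG00000013415.9, chromosome 11, 95957163 to 96005940, minus strand) had 3 and 6 counts in the libraries labelled shMyb, against 20 and 17 in shLuc, or 0.118 ± 0.0585 CPM against 0.445 ± 0.0780 CPM (SD, n = 2 each). It shares 92 exon bases with Mir3063 on the same strand, which had 0 counts, and 43 with Gm29202 on the opposite strand. The log2 fold change of Igf2bp1 was -1.89 (SE 0.54, edgeR adjusted p = 0.0038), on values close to the limit of detection in the libraries labelled shMyb. DESeq2 did not call it (adjusted p = 0.0690), nor did edgeR when shMyb replicate 1 was left out (log2 fold change -1.46, adjusted p = 0.0719). Igf2bp2 (ENSMUSG00000033581.17, chromosome 16, 22059009 to 22163299, minus strand), the family member expressed most widely in adult tissues, had 1.77 and 2.05 CPM in the libraries labelled shMyb and 2.85 and 2.73 CPM in shLuc. Its log2 fold change was -0.55 (SE 0.19, edgeR adjusted p = 0.0133). This call was likewise lost with DESeq2 (adjusted p = 0.108) and when shMyb replicate 1 was left out (-0.45, adjusted p = 0.120).

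The make-up of the Igf2bp family differed between the groups. Per kilobase of merged exons, Igf2bp3 made up 57.2% and 44.8% of the summed Igf2bp level in the libraries labelled shMyb, against 10.1% and 8.78% in shLuc. The share of Igf2bp2 was 41.4% and 52.1% against 79.3% and 82.2%, and that of Igf2bp1 was 1.38% and 3.10% against 10.6% and 8.98%. The sum was 0.577 and 0.532 CPM per kilobase in the libraries labelled shMyb and 0.486 and 0.449 in shLuc. No interval was computed for these shares, which rest on 177 and 156 counts against 150 and 150.

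Arid3a (ENSMUSG00000019564.12, chromosome 10, 79927043 to 79955018, plus strand), the transcription factor at the far end of the fetal pathway, had 36.5 and 35.2 CPM in the libraries labelled shMyb, against 20.3 and 21.1 CPM in shLuc. Its log2 fold change was 0.79 (SE 0.05, edgeR adjusted p = 5.8e-12), 1.73-fold higher, and 11.3% of tested genes rose further. No annotated exon of another gene overlaps it.

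**Figure D3:**
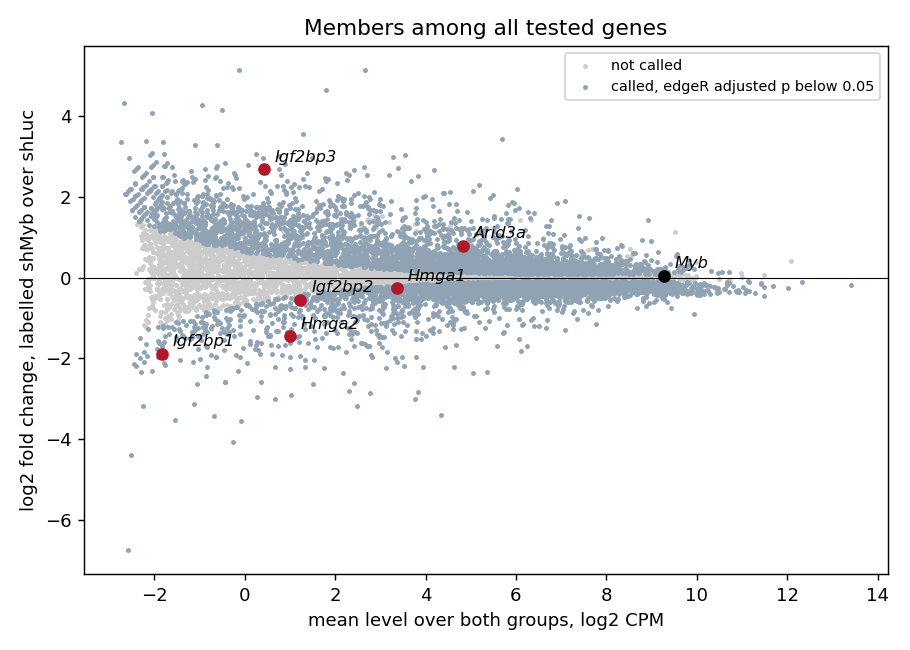
Log2 fold change (libraries labelled shMyb over shLuc) against the mean level in log2 CPM for all 12610 tested genes, with called genes in blue-grey and the others in light grey. The 6 tested members are red and Myb black. Igf2bp3 lies near the upper edge at its level, Igf2bp1 and Hmga2 lie low on the left, and Myb sits at 0.05.

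Levels can be set beside each other only per length. In the libraries labelled shMyb the order in CPM per kilobase of merged exons was Arid3a (mean 6.44), Hmga1 (4.38), Igf2bp3 (0.284), Igf2bp2 (0.258), Hmga2 (0.158), Igf2bp1 (0.0122) and Lin28b (0). The single libraries of Igf2bp3 (0.330 and 0.238) and Igf2bp2 (0.239 and 0.277) overlapped. In shLuc the order was Hmga1 (5.29), Arid3a (3.72), Hmga2 (0.435), Igf2bp2 (0.377), Igf2bp1 (0.0460), Igf2bp3 (0.0442) and Lin28b (0.0039), where the libraries of Igf2bp1 and Igf2bp3 overlapped. Arid3a and Hmga1 thus exchanged places, and both stood well above the other genes in each group. Because reads of Hmga1 may have been split or lost, its level is uncertain, and so is its order with Arid3a. The merged length counts every annotated exon, which lowers the value of genes with many alternative exons.

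**Figure D4:**
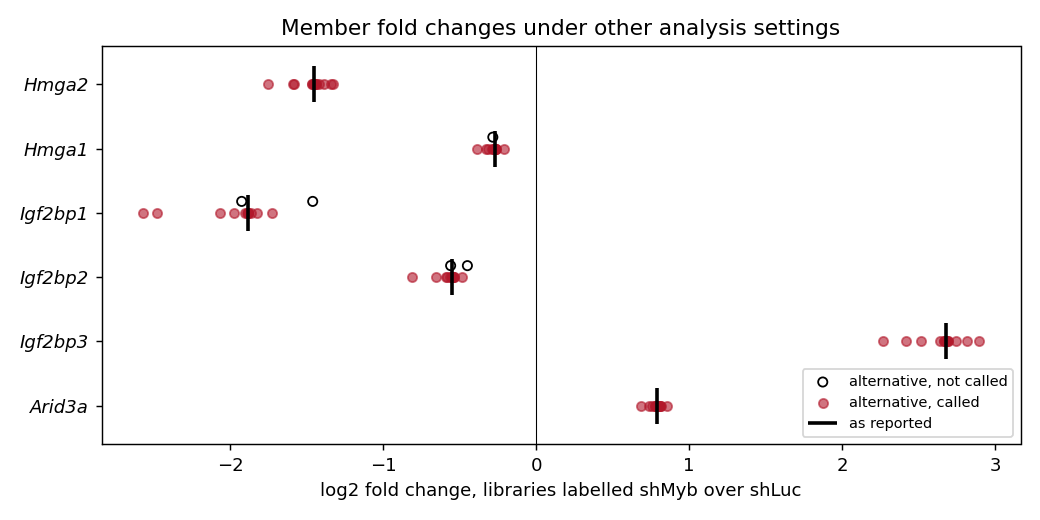
Log2 fold changes of the 6 tested members (libraries labelled shMyb over shLuc) under the reported analysis (black bar) and under other settings (red where called at an adjusted p below 0.05, open where not). Hmga2, Igf2bp3 and Arid3a were called in every setting run, and no member changed sign.

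Promoters are shown for Hmga2 and Igf2bp3, which had the largest fall and rise among the members that passed the low-count filter in both groups. They are given because the hairpin was directed at a DNA-binding factor. Each runs from 250 bases before to 50 bases after the RefSeq start (GRCm38.p6), on the gene's strand, with matches to AACNG or its reverse complement CNGTT, the core letters of the MYB binding sequence, in capitals.
Hmga2, chr10:120476420-120476719, minus strand: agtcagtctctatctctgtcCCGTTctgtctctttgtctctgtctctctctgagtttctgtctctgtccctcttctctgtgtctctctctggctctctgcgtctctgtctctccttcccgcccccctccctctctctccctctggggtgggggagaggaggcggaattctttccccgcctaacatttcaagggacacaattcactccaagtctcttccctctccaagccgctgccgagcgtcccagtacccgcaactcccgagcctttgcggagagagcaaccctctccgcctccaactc
Igf2bp3, chr6:49214905-49215204, minus strand: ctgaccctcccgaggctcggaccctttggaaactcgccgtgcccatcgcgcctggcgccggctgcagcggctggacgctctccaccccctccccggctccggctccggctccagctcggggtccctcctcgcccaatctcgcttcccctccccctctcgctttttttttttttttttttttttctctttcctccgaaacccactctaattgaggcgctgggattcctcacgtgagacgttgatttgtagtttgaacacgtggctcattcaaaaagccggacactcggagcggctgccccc
The Hmga2 window held 1 match and the Igf2bp3 window 0, and 80.4% of the first promoters of 27025 genes held at least 1. The median over those promoters was 2. The narrower letters AACCG or AACGG, which the Hmga2 match meets as CCGTT, were found in 32.2% of those promoters. Among the other members, Lin28b had 1 forward match and Igf2bp2 had 1 reverse match. Each Hmga1 window had 3 forward matches and 1 reverse match. The matches of Lin28b and Igf2bp2 and some of those of Hmga1 also met the narrower letters. Igf2bp1 and Arid3a had no window in the promoter set used here. No match says only that these letters are not in this window.

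Around the 7 genes, those that make and degrade let-7 were called about as often as any tested gene. Of 21 tested genes of let-7 processing and turnover, 8 rose, 5 fell and 8 were not called, so that 61.9% were called against 62.2% of all tested genes. Their median log2 fold change was 0.08. The terminal uridylyltransferase genes Zcchc6 (0.45, adjusted p = 5.2e-10) and Zcchc11 (0.28, 5.7e-07), whose enzymes tag the let-7 precursor when LIN28A is bound, rose. Drosha, the nuclear microRNA processing enzyme, fell (-0.28, 1.1e-06), as did Syncrip, an RNA-binding protein gene (-0.35, 1.1e-08), and Dis3l2, the nuclease that degrades tagged precursors (-0.21, 6.9e-04). Mature let-7 was not measured: of the 12 rows of its hairpin genes 7 were at 0 in all libraries and none had more than 4 counts. Among genes that host or flank let-7, Wdr82 fell (-0.18, adjusted p = 3.0e-04) and Huwe1 was at 0.22 (adjusted p = 0.0457), a call that ended in 6 alternatives.

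Other reported let-7 targets were likewise near that share. Of 38 tested, 11 rose, 13 fell and 14 were not called (63.2% called, against 62.2% of all tested genes), with a median of 0.01 against 0.0048 over all tested genes. With DESeq2 7 rose, and with library totals 8 fell. Over all tested genes 2699 rose with DESeq2 and 3103 fell with library totals, against 3855 and 3994 as reported. Irs2, an insulin receptor substrate, rose (1.67, edgeR adjusted p = 1.9e-12), whereas the matrix protein gene Thbs1 (-1.45, 1.8e-13), Myc (-0.57, 1.7e-12) and the phosphatase gene Cdc25a (-0.35, 1.9e-08) fell. Over all 1446 tested genes with a let-7 match in the 3′ UTR, 34.3% rose and 28.4% fell, with a median of 0.03. Of the 10514 without a match 30.5% rose and 33.3% fell, with a median of -0.0045. Of the 189 with at least 2 matches 31.7% rose and 28.6% fell, with a median of 0.01. Of the 8 with at least 4 matches, Hmga2 and Igf2bp1 among them, 1 rose and 3 fell, with a median of -0.05. These sets were not matched for the length of the 3′ UTR, and the difference between them was not tested.

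Of 8 tested genes known from fetal lymphocytes and stem cells, 4 rose and 3 fell (median 0.28). That is 50% higher and 37.5% lower, against 30.6% and 31.7% of all tested genes. H19, an imprinted non-coding RNA, had 3.36 and 3.59 CPM in the libraries labelled shMyb against 36.1 and 37.8 CPM in shLuc (log2 fold change -3.41, SE 0.08), and the Polycomb gene Cbx2 fell (-0.26, adjusted p = 2.8e-06). Mycn (0.28, 5.1e-06) and Bhlhe41, a regulator of B-1a cells (0.94, 4.1e-06), rose. Of 10 adult lymphoid genes 4 rose and 4 fell (median -0.03), 80% called against the same 62.2%. Il2ra (0.88, 1.5e-16) and Klf2 (1.43, 1.8e-13) rose, while Dntt (-0.89, 2.8e-16) and Satb1 (-0.96, 1.3e-11) fell.

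Of 14 tested client transcripts of the IGF2BP proteins 2 rose and 6 fell (median -0.07), 57.1% called against 62.2% of all tested genes. The count that rose was 5 with library totals or with the trend with expression level removed. Among them were Bcl2 (1.42, adjusted p = 8.6e-18), which rose, and H19, Myc and Ccnd3 (-0.39, 5.1e-09), which fell. Igf2, the transcript that gave the family its name, had 2 and 4 counts in the libraries labelled shMyb and 1 and 0 in shLuc. Of 12 partners of ARID3A and the HMGA proteins 5 rose and 3 fell (median 0.05), 66.7% called. With library totals 8 rose and 1 fell, and with DESeq2 3 rose. Over all tested genes 4667 rose and 3103 fell with library totals and 2699 rose with DESeq2, against 3855 and 3994 as reported. The number of partners that rose also moved without shLuc replicate 2. Sp100 (0.78, 8.9e-14), Relb (0.76, 5.3e-07) and Nfkb1 (0.21, 2.5e-05) rose and Cdkn1a fell (-0.53, 9.2e-12). Of 10 tested genes with ARID or HMG names 3 rose and 6 fell (median -0.19), 90% called. The HMG genes of this list belong to the HMGB and HMGN families. They share the name but are not paralogs of the AT-hook HMGA genes. The ARID genes Arid5b (1.53, 6.9e-10) and Arid5a (0.50, 1.2e-11) rose, and the HMG genes Hmgb1 (-0.40, 1.7e-09) and Hmgn1 (-0.31, 7.8e-08) fell.

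**Figure D5:**
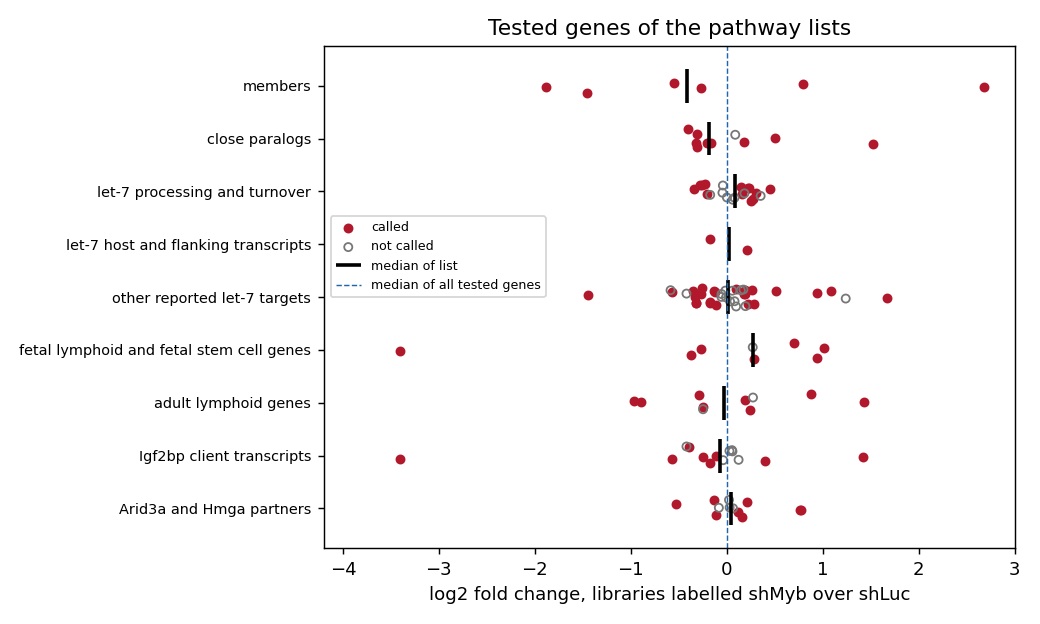
Log2 fold changes (libraries labelled shMyb over shLuc) of the tested genes in each pathway list, with called genes filled, others open, list medians as black bars and the median of all tested genes (0.0048) as a dashed line. Every list but that of let-7 hosts, which held 2 tested genes, had at least 2 called genes on each side of 0. The tested genes of the list labelled close paralogs are ARID, HMGB and HMGN genes, and the latter families are not paralogs of HMGA.

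Markers of other cell types were read because mesenchymal cells are also known to express Hmga2 and Igf2bp genes. All 25 stromal markers had counts, at a summed 142 and 148 CPM in the libraries labelled shMyb and 133 and 113 CPM in shLuc. Of 22 tested, 5 rose, 7 fell and 10 were not called (median -0.08), 54.5% called against 62.2% of all tested genes. With DESeq2, or with the trend with expression level removed, 3 rose. The marker with the highest mean over the 4 libraries was Thy1, a surface antigen that lymphocytes also carry, at 62.5 and 58.7 CPM against 12.9 and 11.7 CPM (log2 fold change 2.30, adjusted p = 1.1e-20). Leaving Thy1 out, a choice made after its value was seen, turned the direction of the sum, to 79.9 and 89.6 CPM against 120 and 101 CPM. The others that rose were Tagln (1.29, adjusted p = 3.1e-05), Postn (1.01, 0.0379), Serpinf1 (0.79, 6.7e-04) and Sparc (0.42, 0.0083). Those that fell were Cxcl12 (-1.80, adjusted p = 6.1e-06), the fibronectin gene Fn1 (-1.52, 8.5e-10), Thbs1, Fbn1 (-1.35, 6.9e-05), Bgn (-1.30, 6.4e-11), Acta2 (-0.74, 2.4e-05) and Col6a1 (-0.49, 0.0127). The collagen genes Col1a1 and Col1a2 together had 25.2 and 28.9 CPM in the libraries labelled shMyb and 31.2 and 25.3 CPM in shLuc, which overlapped. The part of stromal RNA in the members' values was not tested.

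Myeloid markers were at low level, and 6 of 14 were not tested. Of the 8 tested, 5 rose and none fell (median 1.25), or 62.5% higher against 30.6% of all tested genes. The others were Csf1r (-0.40, edgeR adjusted p = 0.205), S100a8 (0.95, 0.0572) and Ly6c2 (0.83, 0.179). A filter of 1 CPM in 2 libraries left Lyz2, S100a9 and Cebpa untested, and the 2 of the 5 still tested, Itgam and Cd14, rose. With the trend with expression level removed 1 marker fell. The 14 markers summed to 8.93 and 10.4 CPM in the libraries labelled shMyb and 4.95 and 3.88 CPM in shLuc, with Elane and Ctsg at 0. Itgam, an integrin gene of phagocytes, had the highest mean CPM over the 4 libraries (3.09 ± 0.302 CPM against 1.08 ± 0.168 CPM, SD, n = 2 each, log2 fold change 1.51, adjusted p = 9.9e-07). Of T and NK cell markers, Cd4, Cd8a and Ncr1 were at 0. Cd3e had 1 and 2 counts in the libraries labelled shMyb and 1 and 2 in shLuc, and Cd3d 2 and 2 against 1 and 1. Cd3g had 0 and 0 against 2 and 0, Nkg7 2 and 1 against 5 and 1, and Gzmb 0 and 1 against 0 and 0. Lck had the highest mean CPM (118 and 111 CPM against 96.9 and 99.1 CPM) and Zap70 fell (-1.38, adjusted p = 7.5e-15). The list summed to 121 to 129 CPM in the libraries labelled shMyb and 123 to 126 CPM in shLuc, most of it Lck and Zap70. Of 2 tested erythroid and megakaryocyte markers neither was called, and the list summed to 7.39 and 10.3 CPM against 5.20 and 2.43 CPM, most of it the beta globin gene Beta-s (6.18 and 8.57 CPM against 4.23 and 1.49 CPM), which was called higher in 5 alternatives. The part of these cells in the values of Igf2bp3 and Arid3a was not tested.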

How the data were processed

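RNA-seq counts of 2 libraries labelled shMyb and 2 shLuc libraries were used as deposited: the authors deposited unnormalised counts for each gene symbol. FastQC, STAR, HTSeq and DESeq2 with the mm10 build are named in the submitters' processing notes. Tool versions, annotation and strand setting were not given in the sources used here. Samples were grouped by title. The members and lists were chosen with earlier results of these data known.

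Genes were kept by filterByExpr (minimum count 10), scaled by TMM and tested with edgeR 4.0.16 in R 4.3.3 (glmQLFit with robust=TRUE, glmQLFTest, with a model of group alone). Benjamini-Hochberg adjustment ran over 12610 genes with calls below 0.05. An SE is the log2 fold change over the square root of F. Duplicates differed by more than counting noise (chi-square per degree of freedom 4.06 in shMyb-labelled libraries and 3.68 in shLuc). Alternatives were RLE, library totals, other filters, robust=FALSE, DESeq2 1.42.0, limma-voom (limma 3.58.1), replicate blocks, leaving out each library, a threshold of 0.01 and offsets for expression level or for GC content and length. Symbols were matched to GENCODE M21 (GRCm38). Named were all members, Myb, the 3 genes most like Hmga2 (log2 of CPM + 0.1), up to 4 called genes with the smallest p per list and the leading markers. Dis3l2, Trim71, Igf2, Col1a1, Col1a2, all called stromal markers, the other tested myeloid markers and the T and NK cell markers given by counts were added after their values were seen.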

Additional observations from a re-analysis of the deposited data

How the results depend on the processing

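No member changed sign in any of the 16 alternatives that gave it a value, and Hmga2 (-1.76 to -1.33), Igf2bp3 (2.27 to 2.89) and Arid3a (0.69 to 0.85) were called in all of them. With DESeq2, which called 45.6% of 12916 genes, 1 member was called lower in place of 4: Hmga1 (-0.28), Igf2bp1 (-1.93) and Igf2bp2 (-0.56) lost their calls. Without shMyb replicate 1, Igf2bp1 and Igf2bp2 lost theirs, so 2 members were called lower; over the 4 libraries left out in turn, 2 to 4 were, with Igf2bp1 at -2.48 to -1.46 and Igf2bp2 at -0.66 to -0.45. With the trend with expression level removed Igf2bp1 was at -2.57. At an adjusted p below 0.01 Igf2bp2 (-0.55) was not called. Igf2bp1 was left out by the filter of 1 CPM in 2 libraries. Myb was called higher with library totals (0.11) and with the trend with expression level removed (0.17). The cause of these changes was not tested. A fit that leaves out a library assumes that the lone sample varies like the other group. With the replicate block 3632 genes were higher and 3709 lower, and it changed no member's call. Same-numbered libraries deviated at a correlation of -0.252, so a crossed replicate block was added after this was seen (4258 higher and 4335 lower). With 8-base let-7 matches 6 of the 7 genes had a site. Of 416 recomputed list counts 41 moved by over 1.5 times, in 12 of 26 tallies. Beside those given with their lists, 1 to 5 partners of ARID3A and the HMGA proteins fell, 4 client transcripts rose with the crossed block, 3 of the pre-B cell markers fell in 6 alternatives in place of 5, and 1 of the T and NK cell markers fell in 9 in place of 2. Depth limits Lin28b and Igf2bp1 most, at 0 to 2 and 3 to 20 counts.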
